A study of Mus musculus with 10 samples.

Results

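The mouse Fc gamma receptors and the proteins that carry their signal were described as 7 genes, Fcgr1, Fcgr3, Fcgr4, Fcgr2b, Fcer1g, Syk and Fcgrt, which were chosen by name among 23382 gene rows with an NCBI identifier. All 7 passed the filter on low counts, as did 12654 rows in all. RNA was sequenced on the BGISEQ-500 platform from thioglycollate-elicited peritoneal macrophages of C57BL/6 mice aged 8 weeks, collected on day 3 after thioglycollate. The 5 control libraries came from cells labelled as untreated. The 5 ox-LDL libraries came from cells primed with LPS at 100 ng/ml and then given oxidized low-density lipoprotein (ox-LDL) at 100 µg/ml for 16 h, and by these labels the effects of LPS and of ox-LDL cannot be told apart. Whether the control cells were primed too is not settled by the design text. The labels call the 5 libraries of a group biological replicates without naming the animals, and p-values measure the spread between these libraries.

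Fc gamma receptors bind the constant part of IgG and let a macrophage take up and answer antibody-coated particles. In mice, FcγRI, FcγRIII and FcγRIV are activating and reach the surface together with the common gamma chain FcRγ, whose ITAM is phosphorylated by Src family kinases and then recruits the kinase Syk. FcγRIIb carries its own inhibitory ITIM, through which phosphatases such as SHIP-1 dampen the same signal, so the outcome depends on the balance of activating and inhibitory receptors on one cell. FcRn, the product of Fcgrt, is an IgG receptor of another kind: it resembles MHC class I, pairs with β2-microglobulin and returns IgG from endosomes to the surface.

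Fcgr2b (NCBI gene 14130), Fcgr4 (246256), Fcgr3 (14131) and Fcer1g (14127) lie in this order on chromosome 1 of the mouse build NCBIM37 (mm9). Fcgr2b spans 172890689 to 172906678 on the minus strand and Fcgr4 spans 172949051 to 172959892 on the plus strand, where a small nuclear RNA annotation overlaps it. Fcgr3 spans 172981300 to 172995066 and Fcer1g 173159703 to 173164496, both on the minus strand. The intervals between neighbours were 42372, 21407 and 164636 bases. Fcgr1 (14129) lies elsewhere, on chromosome 3 from 96086832 to 96098179, and Fcgrt (14132) on chromosome 7 from 52348363 to 52359192, both on the minus strand. Syk is NCBI gene 20963.

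The activating Fcgr3 and the inhibitory Fcgr2b resemble each other more than any other pair of the 4 Fc gamma receptor genes. Their coding sequences were identical at 84.5% of 785 aligned bases, with a longest identical run of 129 bases, against 59.5% to 64.4% and runs of 9 to 14 bases for the other pairs. The coding exon in which they are most alike has 255 bases in each gene and differs at 5 of them. It is printed because reads from it bear on every comparison of these receptors, and capitals mark the differing bases. It lies at chr1:172896577-172896831 in Fcgr2b and at chr1:172984070-172984324 in Fcgr3 (NCBIM37, minus strand, printed as transcribed).
Fcgr2b exon: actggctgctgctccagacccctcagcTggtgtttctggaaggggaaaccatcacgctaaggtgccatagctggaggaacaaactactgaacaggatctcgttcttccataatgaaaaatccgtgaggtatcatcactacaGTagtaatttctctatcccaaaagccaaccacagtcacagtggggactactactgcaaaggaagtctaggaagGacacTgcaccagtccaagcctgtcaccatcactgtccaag
Fcgr3 exon: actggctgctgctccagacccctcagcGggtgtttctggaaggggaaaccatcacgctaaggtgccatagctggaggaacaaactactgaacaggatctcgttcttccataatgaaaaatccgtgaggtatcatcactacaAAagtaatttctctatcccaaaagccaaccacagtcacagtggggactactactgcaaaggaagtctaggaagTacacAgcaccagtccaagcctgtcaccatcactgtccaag
Of all 50-base windows of its transcript, 10.7% of those of Fcgr2b and 12.8% of those of Fcgr3 occur unchanged in the other gene, and of 100-base windows 2.93% and 3.53%. No such window was shared with Fcgr1 or Fcgr4. How reads from the shared stretches were assigned is not given in the sources used here, so the separate counts of Fcgr2b and Fcgr3 carry that uncertainty.

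The promoters of the 4 receptors are shown because the counts of these genes are set against each other further on. Sequences run from 250 bases before to 50 after the start site, from RefSeq (GRCm38.p6), where all 7 genes were matched. For this, 3 motifs were searched on both strands with the sequences in view: TTCNNNGAA, the form bound by STAT dimers, GAAA repeated after 2 free bases, the form bound by interferon regulatory factors, and GAGGAA, the core bound by the myeloid factor PU.1. Of 32851 mouse promoter windows of this length, 8.30% hold the first, 3.44% the second and 28.3% the third. Capitals mark matches, and none of these matches overlap.
Fcgr1 promoter: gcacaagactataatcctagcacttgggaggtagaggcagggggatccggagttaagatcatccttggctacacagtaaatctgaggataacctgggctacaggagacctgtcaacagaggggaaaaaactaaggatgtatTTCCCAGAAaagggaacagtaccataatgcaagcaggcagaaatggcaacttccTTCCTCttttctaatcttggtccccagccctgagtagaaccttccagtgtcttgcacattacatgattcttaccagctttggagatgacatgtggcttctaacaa
Fcgr3 promoter: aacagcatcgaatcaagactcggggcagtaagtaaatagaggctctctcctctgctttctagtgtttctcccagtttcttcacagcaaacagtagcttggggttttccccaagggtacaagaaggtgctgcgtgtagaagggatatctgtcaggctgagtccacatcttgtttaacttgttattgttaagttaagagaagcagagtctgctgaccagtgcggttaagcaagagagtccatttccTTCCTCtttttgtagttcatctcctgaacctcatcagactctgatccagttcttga
Fcgr4 promoter: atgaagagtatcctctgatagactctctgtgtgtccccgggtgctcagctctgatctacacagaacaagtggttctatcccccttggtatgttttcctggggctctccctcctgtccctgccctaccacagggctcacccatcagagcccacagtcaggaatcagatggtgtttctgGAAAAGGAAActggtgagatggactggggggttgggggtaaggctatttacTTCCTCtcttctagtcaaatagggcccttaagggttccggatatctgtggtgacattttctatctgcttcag
Fcgr2b promoter: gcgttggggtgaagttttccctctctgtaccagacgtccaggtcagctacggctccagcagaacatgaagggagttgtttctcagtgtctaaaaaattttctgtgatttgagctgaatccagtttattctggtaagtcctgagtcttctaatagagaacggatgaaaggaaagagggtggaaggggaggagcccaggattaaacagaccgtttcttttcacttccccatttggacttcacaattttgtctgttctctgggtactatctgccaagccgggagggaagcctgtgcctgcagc
The window of Fcgr1 holds TTCCCAGAA at position -109 and GAGGAA, on the other strand, at -55. Fcgr4 holds GAAAAGGAAA at -73 and GAGGAA, also on the other strand, at -22. Fcgr3 holds GAGGAA, again on the other strand, at -6 in the window printed and at -15 from its start site 2. The Fcgr2b, Fcer1g and Fcgrt windows hold none of the 3, and of the 2 start sites listed for Syk 1 holds GAGGAA at -9. A match describes the letters in the window and is not evidence of binding.

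Depth was even, from 19257131 to 20687289 estimated counts per library. CPM are counts scaled to a common library size with TMM factors, and log2 fold changes are ox-LDL over control. The ox-LDL library 2 stood apart: its TMM factor was 0.593, the lowest of 10, and its short transcripts were overrepresented, by 1.58 on the log2 scale at the length of Fcer1g against -0.58 to 0.55 in the other libraries. Every fold change was therefore also computed without it and with each library's trend on transcript length removed. The 8 macrophage markers, among them Adgre1, Csf1r, Cd68, Itgam, Lyz2, Mertk and Cd14, were all detected and summed to 19669 to 46761 CPM in controls and 12468 to 47723 CPM in ox-LDL libraries. Among 8 further marker lists, B cell markers summed to 41.1 to 50.4 CPM in controls and 15.8 to 26.7 CPM in ox-LDL libraries, nearly all of it Cd22, while Cd79a, Ms4a1 and Pax5 stayed below 1 CPM in every library. Neutrophil markers summed to 6.76 to 16.0 CPM in controls and 11.6 to 154 CPM in ox-LDL libraries, mostly S100a8, with S100a9, Cxcr2, Mpo, Elane, Camp and Ngp below 1 CPM throughout. Mesothelial and stromal markers, mainly Dcn, summed to 13.5 to 47.1 CPM in controls and 90.9 to 127 CPM in ox-LDL libraries. The mesothelial Msln and Upk3b among them stayed below 1 CPM in every library. Resident peritoneal macrophage markers summed to 6.04 to 32.9 CPM in controls and 5.66 to 12.5 CPM in ox-LDL libraries. Their members differed in direction: mean Timd4 was 0.142 CPM in controls and 1.37 CPM in ox-LDL libraries, and Icam2 4.82 and 1.96 CPM. Neither overlapped between the groups, whereas Gata6, Vsig4, Selp and Garnl3 did. Vsig4 reached 22.4 CPM in controls, against a control median of 3.51 CPM. T cell, NK cell and dendritic cell markers summed to at most 4.71 CPM in every library, and mast cell and eosinophil markers to 2.95 to 13.5 CPM in controls and 0.780 to 5.97 CPM in ox-LDL libraries. The part of other cells in the results was not tested. In bulk RNA, fewer cells of a type and less RNA per cell cannot be told apart.

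Per transcript length, in FPKM, the common gamma chain was by far the most abundant of the 7 transcripts and FcRn the least. Control means were 3898 ± 931 FPKM (SD, n = 5) for Fcer1g, 1124 ± 184 for Fcgr3, 263 ± 52.7 for Fcgr2b, 164 ± 66.6 for Fcgr4, 40.7 ± 22.7 for Fcgr1, 31.5 ± 14.5 for Syk and 8.86 ± 1.84 for Fcgrt. In ox-LDL libraries the means were 4362 ± 1349 FPKM for Fcer1g, 613 ± 121 for Fcgr3, 318 ± 90.0 for Fcgr2b, 137 ± 103 for Fcgr4, 59.0 ± 24.1 for Syk, 49.7 ± 36.3 for Fcgr1 and 3.72 ± 1.44 for Fcgrt. FcγRIII was thus the leading Fc gamma receptor transcript in both groups, with Fcgr2b next. The ranges of Fcgr2b and Fcgr4 overlapped in both groups, although Fcgr2b was higher within each of the 10 libraries. Fcgr1 and Syk also overlapped in both groups, and Fcgr4 and Syk in ox-LDL libraries, whereas Fcer1g, Fcgr3 and the gene next below never overlapped within a group.

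None of the 7 genes passed an adjusted p below 0.01 in edgeR's quasi-likelihood test with Benjamini-Hochberg adjustment, against 14.7% of the 12654 genes tested. Fcgrt and Syk, 2 of 7, had an unadjusted p below 0.05, against 38.7% of all genes, and both had an adjusted p below 0.05, against 26.6%. DESeq2 called these 2 at 0.01, against 24.2% of genes, limma-voom called Fcgrt alone, against 15.4%, and limma on log2(FPKM + 1) called Fcgrt and Fcgr3, against 12.8%. Fits without 1 library called Syk alone (without control library 5, against 12.8% of genes), Fcgrt alone (without ox-LDL library 1, against 15.3%) or both (without ox-LDL library 2, against 25.1%). In 1 of 7 genes, Fcgrt, the groups did not overlap in CPM, against 20.7% of all genes, and in FPKM they did not overlap in 2 of 7, Fcgrt and Fcgr3, against 17.5% of 10470 genes.

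**Figure D1:**
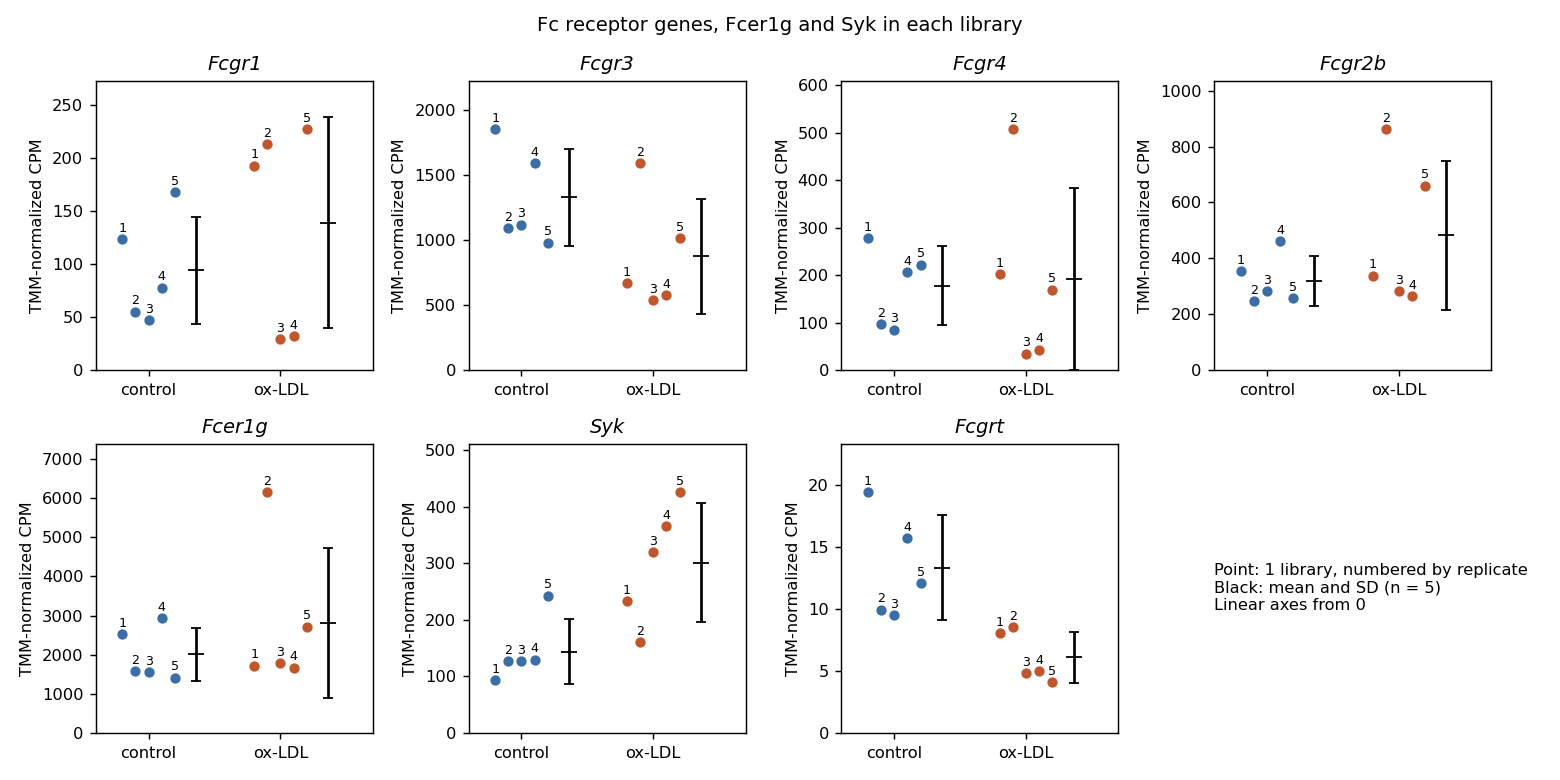
Expression of the 7 genes in each library, as TMM-normalized CPM on linear axes from 0. Points are libraries numbered by replicate, and black marks are the mean and SD of 5 libraries. In CPM only Fcgrt separates the groups without overlap, and ox-LDL library 2 is the highest of its group for Fcgr3, Fcgr4, Fcgr2b, Fcer1g and Fcgrt.

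Fcgr1 encodes FcγRI, the high-affinity IgG receptor. Its control libraries 1 to 5 had 123, 55.2, 47.4, 77.8 and 167 CPM, and its ox-LDL libraries 1 to 5 had 192, 213, 29.1, 32.2 and 227 CPM. In CPM, 3 of the ox-LDL libraries lay above every control and the other 2 below every control. In FPKM, only ox-LDL library 1 lay above every control, at 93.26 FPKM against 22.67 to 78.21 FPKM. Libraries 2 and 5 of the ox-LDL group, at 50.95 and 77.14 FPKM, lay within the control range. The remaining ox-LDL libraries, at 12.65 and 14.5 FPKM, lay below every control. How many ox-LDL libraries lay above the controls thus depended on the scaling. The means were 94.2 ± 50.4 and 139 ± 99.3 CPM (SD, n = 5), a log2 fold change of 0.56 (SE 0.59) with an adjusted p of 0.529. The value was 0.31 without ox-LDL library 2, 0.29 with library size alone, 0.23 with limma-voom, 0.20 with the replicate number as a block and 0.02 on log2(FPKM + 1), and 0.87 without control library 5, and no setting passed the threshold.

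Fcgr4 encodes FcγRIV, an activating receptor of intermediate affinity for IgG2 subclasses. Controls had 278, 97.1, 85.3, 206 and 222 CPM, and ox-LDL libraries had 203, 507, 35.1, 43.3 and 169.8 CPM. The same ox-LDL libraries 3 and 4 were lowest as for Fcgr1, and the groups overlapped. The means were 178 ± 83.4 and 192 ± 192 CPM, a log2 fold change of 0.11 (SE 0.64, adjusted p = 0.924). Its sign depended on the scaling and on single libraries: it was -0.27 with library size alone, -0.06 with upper-quartile factors, -0.02 with the length trend removed and -0.70 without ox-LDL library 2.

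Fcgr3 encodes FcγRIII, the low-affinity activating receptor for immune complexes. Controls had 1854, 1096, 1121, 1595 and 982 CPM, and ox-LDL libraries had 668, 1593, 538, 577 and 1014 CPM. In CPM, 3 of the ox-LDL libraries lay below every control, and libraries 2 and 5 lay within the control range. In FPKM every ox-LDL library lay below every control, at 464 to 755 FPKM against 911 to 1363 FPKM. The means were 1329 ± 376 and 878 ± 442 CPM, a log2 fold change of -0.60 (SE 0.34, adjusted p = 0.225). Without ox-LDL library 2 it was -0.97 with an adjusted p of 0.0129, and on log2(FPKM + 1) it was -0.88 with an adjusted p of 0.00741 by limma, past the threshold. FPKM are divided by each library's total without TMM factors, and scaling the counts by library size alone gave -0.88 with an adjusted p of 0.0113. The sign was negative in all 24 alternatives.

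Fcgr2b encodes FcγRIIb, the inhibitory receptor. Controls had 354, 246, 283, 462 and 259 CPM, and ox-LDL libraries had 339, 862, 283, 266 and 661 CPM. Libraries 2 and 5 of the ox-LDL group lay above every control and the remaining 3 lay among them. The means were 321 ± 89.5 and 482 ± 266 CPM, a log2 fold change of 0.59 (SE 0.36, adjusted p = 0.255). It was 0.23 without ox-LDL library 2, 0.29 with library size alone and 0.25 on log2(FPKM + 1), and positive in all 24 alternatives, none of which passed the threshold.

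Fcer1g encodes FcRγ, the ITAM chain that the activating receptors share. Controls had 2531, 1583, 1558, 2941 and 1417 CPM, and ox-LDL libraries had 1720.3, 6162, 1782, 1669 and 2716 CPM. Library 2 of the ox-LDL group was far above all others, and the remaining ox-LDL libraries lay inside the control range. The means were 2006 ± 685 and 2809.8 ± 1923 CPM, a log2 fold change of 0.49 (SE 0.41, adjusted p = 0.423), which was -0.07 without ox-LDL library 2, 0.16 with library size alone and 0.15 on log2(FPKM + 1). With the length trend removed it was 0.57 with an adjusted p of 0.0225. With that trend removed and ox-LDL library 2 left out as well it was 0.64 (edgeR, adjusted p = 0.0103). With that trend removed and the replicate number as a block it was 0.55 (edgeR, adjusted p = 0.0514). None of these passed the threshold of 0.01.

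Syk encodes the kinase that docks on the phosphorylated ITAM. Controls had 92.9, 127, 127, 129.6 and 243 CPM, and ox-LDL libraries had 233, 161, 319.8, 365 and 426 CPM. In CPM, all 5 ox-LDL libraries lay above 4 of the 5 controls, and control library 5 overlapped with them. In FPKM, ox-LDL library 2 lay below control libraries 2 to 5, at 19.1 FPKM against 25.6 to 55.8 FPKM. The remaining ox-LDL libraries, at 55.5 to 80.8 FPKM, lay above control libraries 1 to 4. The means were 144 ± 57.3 and 301 ± 105 CPM, 2.09-fold or 1.07 on the log2 scale (SE 0.32), with an adjusted p of 0.0278. The adjusted p was 0.00848 without control library 5 and 0.00480 without ox-LDL library 2, both past the threshold, but 0.119 when counts were scaled by library size alone and 0.133 on log2(FPKM + 1) by limma.

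Fcgrt encodes FcRn, which recycles IgG. Controls had 19.5, 9.97, 9.50, 15.8 and 12.1 CPM, and ox-LDL libraries had 8.09, 8.56, 4.83, 4.98 and 4.12 CPM. Every ox-LDL library lay below every control. The means were 13.4 ± 4.22 and 6.12 ± 2.05 CPM, 0.457-fold or -1.13 on the log2 scale (SE 0.28), with an adjusted p of 0.0109, just outside the threshold of 0.01. Over 24 alternatives the log2 fold change lay between -1.32 and -0.96, and 12 of them passed the threshold, among them those without ox-LDL library 1 (-1.25, adjusted p = 0.00970) and without ox-LDL library 2 (-1.32, adjusted p = 0.00317). B2m, the light chain that FcRn needs, had 5494 CPM in controls and 16465 CPM in ox-LDL libraries on average, with 46991 CPM in ox-LDL library 2, and its log2 fold change of 1.58 (SE 0.58, adjusted p = 0.0644) did not pass. Without that library it was 0.64.

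**Figure D2:**
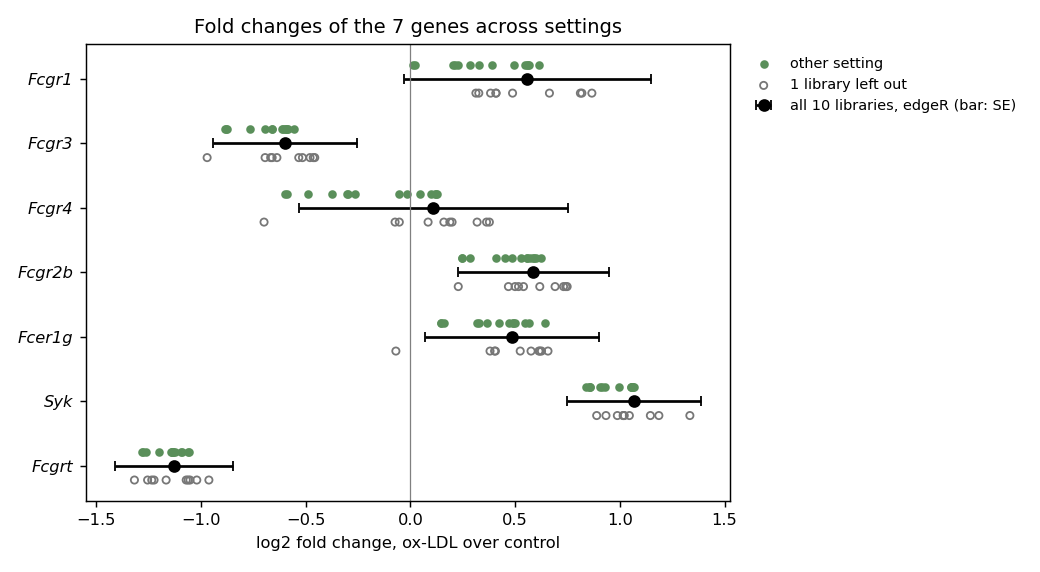
Log2 fold change of the 7 genes, ox-LDL over control. Black points and bars are edgeR's values and SE over 10 libraries, green points are other settings and open points leave out 1 library. Fcgr3 and Fcgrt stay below 0 and Fcgr1, Fcgr2b and Syk above 0, whereas Fcgr4 and Fcer1g cross it.

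The activating and inhibitory receptors were compared within each library, where the library's scaling cancels. Ratios were judged at an adjusted p below 0.05, not at the 0.01 used for genes. The log2 ratio of Fcgr3 to Fcgr2b counts was 2.39, 2.16, 1.99, 1.79 and 1.92 in control libraries 1 to 5 and 0.98, 0.89, 0.93, 1.12 and 0.62 in ox-LDL libraries 1 to 5. Every ox-LDL library, including library 2, lay below every control. The mean fell from 2.05 ± 0.23 to 0.91 ± 0.18 (SD, n = 5), a difference of -1.14, or 0.453-fold, with an exact two-sided permutation p of 0.00794, the smallest that 5 against 5 libraries can give, and an adjusted p of 0.0238 over the 3 ratios. The ratio of FPKM (-1.13) and the removal of the length trend (-1.14) gave the same adjusted p. The exact p is the same for any scaling that keeps the groups apart, so this adds no support. With replicate numbers taken as pairs, an exact sign-flip test gave p = 0.0625, the smallest it can give, and an adjusted p of 0.188, which did not pass. A ratio shows unequal change and does not say which of the genes moved, and reads from the shared exon printed above could be assigned to either.

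For the other activating receptors the ratio did not pass the threshold of 0.05 used for ratios. The log2 ratio of Fcgr4 to Fcgr2b was -0.35, -1.34, -1.73, -1.16 and -0.22 in controls and -0.74, -0.76, -3.01, -2.62 and -1.96 in ox-LDL libraries. The groups overlapped, with a difference of means of -0.86 (exact permutation p = 0.167, adjusted p = 0.25). The log2 ratio of Fcgr1 to Fcgr2b was -1.52, -2.15, -2.58, -2.57 and -0.63 in controls and -0.81, -2.02, -3.28, -3.04 and -1.54 in ox-LDL libraries. Its difference of -0.25 (exact permutation p = 0.675, adjusted p = 0.675) was 0.07 without control library 5 and 0.04 without ox-LDL library 3. Whether the 3 ratios differ from one another in their change was not tested.

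**Figure D3:**
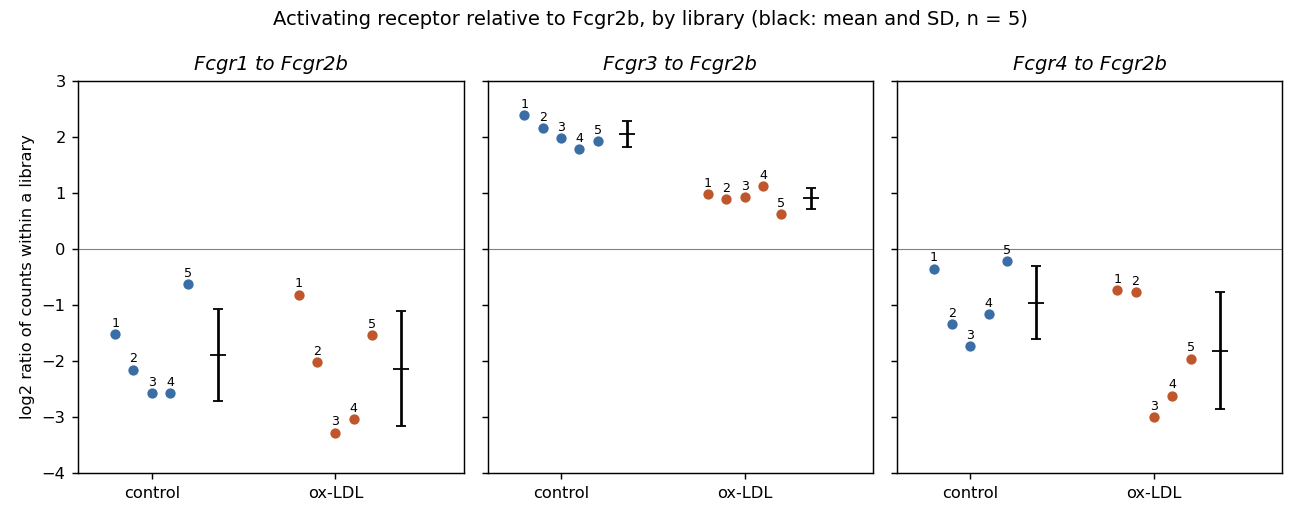
Log2 ratio of the counts of each activating receptor to those of Fcgr2b within a library. Points are libraries numbered by replicate, black marks are the mean and SD of 5 libraries, and the grey line at 0 is an equal count. The groups separate for Fcgr3, with 1.79 the lowest control and 1.12 the highest ox-LDL library, and overlap for Fcgr1 and Fcgr4.

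The make-up of the receptor transcripts, as shares of the summed FPKM of the 4 receptors, is given as a description with no test of its own. Fcgr2b made up 13.3% to 19.4% in controls (mean 16.6% ± 2.30) and 24.6% to 32.3% in ox-LDL libraries (mean 28.7% ± 3.20), with no overlap. Fcgr3 made up 70.6% ± 4.84 in controls and 56.3% ± 6.52 in ox-LDL libraries, with ranges of 62.9% to 74.7% and 50.9% to 64.3% that overlapped. Fcgr4 averaged 10.2% ± 3.80 and 10.9% ± 6.41, and Fcgr1 2.60% ± 1.60 and 4.05% ± 2.51. The summed FPKM of the 3 activating receptors was 6.52, 5.19, 4.54, 4.17 and 5.26 times that of Fcgr2b in controls and 3.06, 2.73, 2.18, 2.51 and 2.09 times in ox-LDL libraries. Fcgr3 supplies most of that sum, so these values repeat the ratio above on another scale.

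The common gamma chain was also set against the receptors it serves. Fcer1g FPKM were 2.62, 2.97, 2.91, 3.63 and 2.49 times the summed FPKM of Fcgr1, Fcgr3 and Fcgr4 in controls and 4.05, 6.25, 6.99, 5.96 and 4.81 times in ox-LDL libraries. Every ox-LDL library lay above every control. Fcgr3 supplies most of that sum and was lower in every ox-LDL library in FPKM, whereas Fcer1g FPKM overlapped between the groups. These values thus in part repeat those of Fcgr3, and no test of them was made. In ox-LDL library 2 the length trend was 1.58 on the log2 scale at the length of Fcer1g and 0.70 at that of Fcgr3. The part of that trend in the ratio was not tested. FcRγ also serves receptors other than those for IgG.

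**Figure D4:**
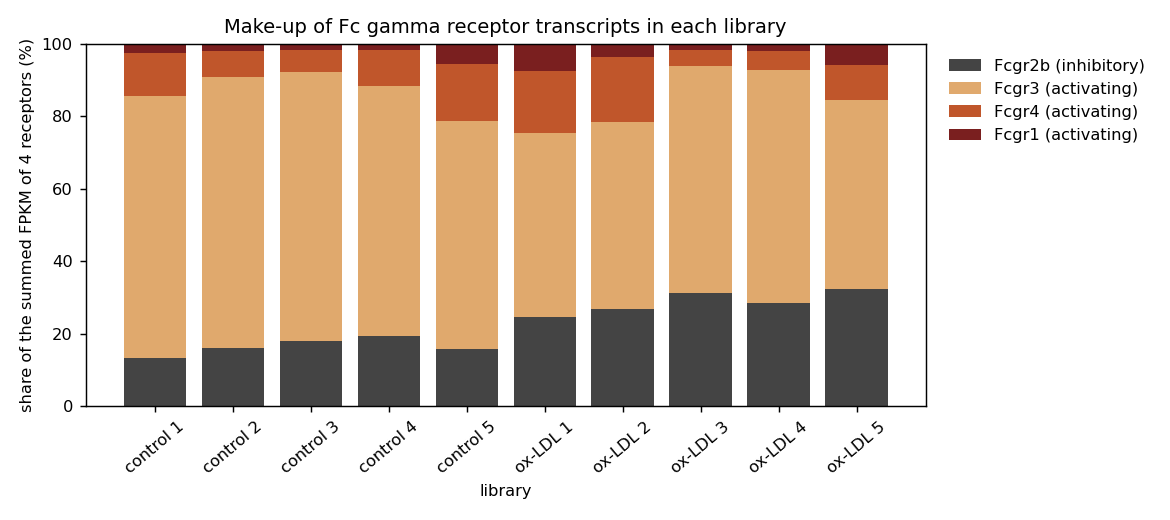
Share of the summed FPKM of the 4 Fc gamma receptors taken by each, in percent, for each library. The dark base of the bars, the inhibitory Fcgr2b, is 13.3% to 19.4% in controls and 24.6% to 32.3% in ox-LDL libraries.

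The receptors varied between libraries in different ways. Likeness of pattern was measured as the root mean square difference of log2(CPM + 1), each gene centred on its own mean, over the 10 libraries and 7503 other genes with a mean of at least 10 CPM. Nearest to Fcgr1 were Aif1 (0.43), Ms4a6b (0.45) and Fcgr4 (0.54), against a median of 1.15 over all genes. Nearest to Fcgr4 were Aif1 (0.28), C1qa (0.33) and C1qc (0.48), against a median of 1.24, and Fcgr1 was at rank 6. Fcgr1 and Fcgr4, on different chromosomes, thus stood near each other in pattern. Fcgr2b was nearest to Bsg (0.19), Rps13 (0.20) and Tmed1 (0.21), with Fcer1g at rank 9 (0.23), and Fcgr3 to Trappc6a (0.13), Dguok (0.14) and Gatd3a (0.15), against medians of 0.74 for both. Fcgr3 was at rank 2145 in likeness to Fcgr2b, at 0.60. These values are descriptions over 10 libraries that share their depth and length trends.

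Beyond the receptors, 109 genes of the pathway were listed by role, of which 98 passed the filter. At an adjusted p below 0.01, 7 were higher in ox-LDL libraries, against 9.4% of all genes, and 7 lower, against 5.35%, so 14.3% of the 98 were called against 14.7% of all genes. Their median log2 fold change was 0.06, against 0.10 over all genes tested. The split of 7 higher to 7 lower became 5 to 9 with library size alone, 6 to 10 with upper-quartile factors and 5 to 11 on FPKM, settings under which the median of all genes moved to -0.09, -0.05 and -0.14. Without ox-LDL library 2 the count was 27 of 100 tested, against 25.1% of all genes.

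Of the Src family kinases, which phosphorylate the ITAM, 1 of 5 was called, against 14.7% of all genes. Src rose from 3.21, 2.52, 2.57, 2.88 and 2.13 CPM in controls to 24.9, 18.8, 53.2, 73.3 and 56.0 CPM in ox-LDL libraries, a log2 fold change of 4.09 (SE 0.38, adjusted p = 2.74e-05), and the groups lay far apart. Lyn, which is abundant in macrophages, had means of 132 and 99.1 CPM and a log2 fold change of -0.41 (SE 0.23, adjusted p = 0.204). None of the 6 phosphatases tested was called, against 14.7% of all genes. Inpp5d, which encodes SHIP-1, had a log2 fold change of 0.02 (SE 0.29, adjusted p = 0.976) whose sign changed with library size alone (-0.12), and Ptpn6, which encodes SHP-1, one of -0.0044 (SE 0.23, adjusted p = 0.992), which was 0.02 with the length trend removed.

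Of 17 adaptors, which link the kinases to downstream enzymes, 1 rose and 2 fell (17.6% called, against 14.7% of all genes). Lcp2, which encodes the adaptor SLP-76, had 24.3 to 46.2 CPM in controls and 125 to 280.4 CPM in ox-LDL libraries, and its log2 fold change was 2.30 (SE 0.26, adjusted p = 8.85e-05). Dok2, an adaptor known to restrain Ras signalling, fell from 83.4 to 123 CPM in controls to 13.8 to 24.9 CPM, by 2.37 on the log2 scale (SE 0.22, adjusted p = 2.63e-05). Lat, a membrane scaffold, had 45.1, 31.5, 54.6, 28.8 and 6.73 CPM in controls and 4.39, 7.28, 9.46, 11.0 and 4.30 CPM in ox-LDL libraries, a log2 fold change of -2.19 (SE 0.48, adjusted p = 0.00518). Lat groups overlapped through control library 5, and the adjusted p lay between 0.0108 and 0.0161 in the 7 fits without control library 1, 2, 3 or 4 or ox-LDL library 1, 3 or 5. Tyrobp, which encodes the ITAM adaptor DAP12, had 2493 ± 825 CPM in controls and 1085 ± 885 CPM in ox-LDL libraries, with a log2 fold change of -1.20 (SE 0.45, adjusted p = 0.0683), and -1.90 without ox-LDL library 2, where it passed.

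Among 20 enzymes of lipid and second-messenger signalling, 3 rose and none fell at that threshold. Pla2g4a, the cytosolic phospholipase that releases arachidonic acid, went from 14.1 to 20.4 CPM in controls to 53.6 to 156 CPM, a log2 fold change of 2.27 (SE 0.29, adjusted p = 1.90e-04). Sphk1, a sphingosine kinase, rose by 1.95 (SE 0.35, adjusted p = 0.00170), and Prkce, a protein kinase C isoform, by 1.41 (SE 0.24, adjusted p = 0.00124). Prkce did not pass with library size alone or on FPKM.

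Of 10 downstream kinases, 3 were called, against 14.7% of all genes. Akt1, which acts below PI3-kinase, fell by 0.74 (SE 0.17, adjusted p = 0.00671) and Tec by 1.06 (SE 0.16, adjusted p = 5.00e-04). Akt1 missed the threshold in 12 of 22 alternatives, among them 7 fits without 1 library (control 1 to 5, ox-LDL 3 or 4). Of 31 genes of actin remodelling, which drives the engulfing membrane, Marcksl1 rose by 3.64 (SE 0.47, adjusted p = 2.27e-04). Dock2, a Rac activator, fell by 1.99 (SE 0.29, adjusted p = 4.49e-04), the kinase Pak1 by 1.78 (SE 0.30, adjusted p = 0.00116) and Marcks, an actin-binding substrate of protein kinase C, by 1.09 (SE 0.22, adjusted p = 0.00363). Marcks missed the threshold without ox-LDL library 3 (adjusted p = 0.0131) or 4 (adjusted p = 0.0116). None of the 4 other Fc receptors and 5 receptor partners tested was called, against 14.7% of all genes.

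**Figure D5:**
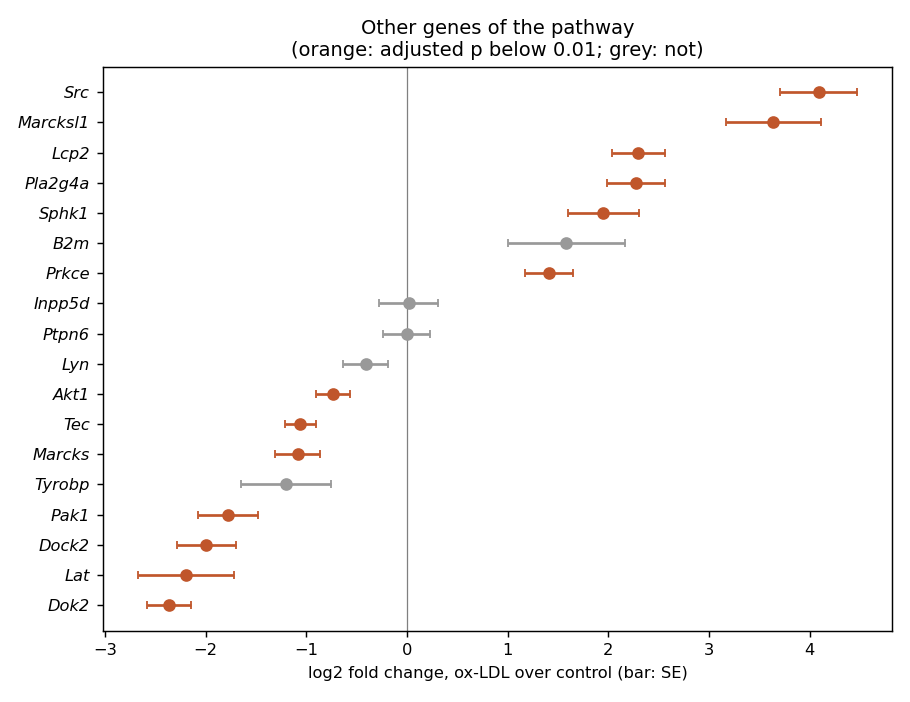
Log2 fold change, ox-LDL over control, with SE, of 13 called pathway genes (orange, adjusted p below 0.01) and of B2m, Inpp5d, Ptpn6, Lyn and Tyrobp (grey). Src and Marcksl1 lie highest, at 4.09 and 3.64, and Dok2 lowest, at -2.37.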

How the data were processed

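The submitters' processing notes name FastQC for read quality, HISAT2 (version 2.0.5) for alignment to mm9, SAMtools (version 1.4) for sorting, and StringTie (version 1.3.3.13) as the assembler. The step that made the counts, its handling of strand and the read length are not given in the sources used here. The authors deposited a table of estimated counts for 39488 rows and 10 libraries, of which 13.6% of values were not whole, and a value per gene and library in an unnamed unit. Counts divided by that value and by the library total gave 1 length per gene (median CV 1.14% over 5337 genes), so the deposited values were treated as FPKM, and this length was used as the transcript's effective length. Rows of circular RNAs (9788, with 1.44% to 2.24% of counts) were left out. Symbols were matched for 22818 of 23382 NCBI identifiers with a RefSeq table, used for names alone.

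Counts were rounded, filtered by edgeR's filterByExpr, TMM-normalized and tested by edgeR 4.0.16 (quasi-likelihood, robust) with Benjamini-Hochberg adjustment over 12654 rows. Genes with an adjusted p below 0.01 were called (1866), the biological coefficient of variation was 37.3%, and SE were derived from the F statistic. Ratios of receptors were taken as log2 of counts plus 0.5 and tested by exact permutation over all arrangements (SciPy 1.17.1), with a threshold of 0.05 after adjustment over 3 ratios. Alternatives were DESeq2 1.42.0, limma-voom (limma 3.58.1), other scalings and filters, offsets that remove each library's lowess trend on transcript length, a replicate block, each library left out and limma on log2(FPKM + 1) or log2(FPKM + 0.1) with an FPKM of at least 1 in 5 libraries. Scripts were tested on simulated data.

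Pathway genes were named where called, and Tyrobp, B2m, Inpp5d, Ptpn6 and Lyn in any case. A few listed genes are counted but not reported here by name. The genes and lists were chosen with earlier results of these data known. Comparisons the authors made in other tissues and in patients were not analysed here. Positions come from GENCODE vM1 on NCBIM37, whose table used here gives no position for Syk.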

Additional observations from a re-analysis of the deposited data

Results flagged for a closer look

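Of 20 groups of 5 libraries examined (7 genes and 3 ratios, each in 2 conditions), 2 held a library whose distance to its nearest neighbour exceeded 0.71 of the group's range, where chance gives about 1. Fcer1g in ox-LDL library 2 had 6162 CPM, with the next library at 2716 CPM, a gap of 0.767 of the range. In that library the length trend at the length of Fcer1g was 1.58 on the log2 scale, the highest of the 10 libraries, and the part of that trend in the value was not tested. Syk in control library 5 had 243 CPM, with the next control at 129.6 CPM, a gap of 0.755 of the range. Without that library the log2 fold change of Syk was 1.33 (edgeR, adjusted p = 0.00848), against 1.07 with it.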

How the results depend on the processing

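At an adjusted p below 0.05, 3365 of 12654 genes (26.6%) and 27 of 98 pathway genes were called. Of the 7 receptor and signalling genes, 2 were called. By DESeq2 at 0.01 the counts were 3009 of 12444 genes (24.2%), 26 of 98 pathway genes and 2 of the 7. With the length trend removed they were 2868 of 12654 genes (22.7%), 29 of 98 pathway genes and 1 of the 7. Of the 7, 1 was called by limma-voom (against 1952 of 12654 genes) and 1 with upper-quartile factors (1764 of 12654). The count was also 1 with library size alone (1287 of 12654) and with no filter (1999 of 29267). It was 2 in both FPKM settings (1339 and 1265 of 10470). With 1 library left out, genes called ranged from 1262 of 12927 (without control replicate 4) to 3257 of 12973. Pathway genes called ranged from 10 of 99 (without ox-LDL replicate 3, where 1358 of 12855 genes were called) to 27 of 100. The highest of each came without ox-LDL replicate 2. Of the 7, from 0 to 2 were called. The count was 1 without control replicate 5 (Syk) or ox-LDL replicate 1 (Fcgrt) and 2 without ox-LDL replicate 2 (both). Fcgr3 passed on FPKM (-0.88 and -0.88). Fcgr4 turned negative with limma-voom (-0.37), upper-quartile factors (-0.056), library size alone (-0.27), the length trend removed (-0.016, with the block -0.30, without ox-LDL replicate 2 -0.30), the replicate block (-0.49) and FPKM (-0.59 and -0.60). Fcgrt passed with DESeq2 (-1.14), limma-voom (-1.13), upper-quartile factors (-1.26), library size alone (-1.28), the length trend removed (-1.06, with the block -1.06, without ox-LDL replicate 2 -1.10), no filter (-1.20) and FPKM (-1.09 and -1.28). Syk passed with DESeq2 (1.06) and with the length trend removed and the block (0.85). Leave-one-out log2 fold changes ranged from 0.31 to 0.87 for Fcgr1, 0.23 to 0.75 for Fcgr2b, -0.97 to -0.46 for Fcgr3, -0.70 to 0.38 for Fcgr4, -0.069 to 0.66 for Fcer1g, -1.32 to -0.96 for Fcgrt, 0.89 to 1.33 for Syk, -0.11 to 0.24 for Inpp5d and -0.25 to 0.075 for Ptpn6. Inpp5d turned negative with DESeq2 (-0.00081), upper-quartile factors (-0.12), library size alone (-0.12), the length trend removed (-0.17), no filter (-0.054) and FPKM (-0.15 and -0.19), and Ptpn6 positive with the length trend removed (0.021). Leave-one-out ratios to Fcgr2b ranged from -0.58 to 0.066 for Fcgr1, -1.21 to -1.06 for Fcgr3 and -1.13 to -0.56 for Fcgr4. Apart from these values the causes were not tested. Correlations of same-numbered libraries were 0.02, -0.27, 0.44, -0.28 and 0.41, and number 5 alone was each other's best partner. These 5 values do not settle whether replicate numbers pair the samples. The replicate block called 1434 of 12654 genes, 11 of 98 pathway genes and 0 of the 7. An exact sign-flip test over 5 pairs left the Fcgr3 ratio at -1.14 with p = 0.0625, the smallest it can give (adjusted 0.188). The FPKM values come without their counting error, and the 2 alternatives that combine the length trend with another choice were chosen after seeing the data.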

Other observations

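DAP12 (Tyrobp) and FcRγ (Fcer1g) are both small ITAM adaptors, and their transcripts are short. The pair was chosen after its values were seen, so no test is given. Fcer1g FPKM were 0.592 to 0.753 times those of Tyrobp in the 5 control libraries (mean 0.666 ± 0.0644, SD) and 1.91 to 2.89 times in the 5 ox-LDL libraries (mean 2.26 ± 0.393), with no overlap between the groups. Their own log2 fold changes by edgeR were 0.49 (SE 0.41, adjusted p = 0.423) for Fcer1g and -1.20 (SE 0.45, adjusted p = 0.0683) for Tyrobp. Without ox-LDL library 2 they were -0.07 and -1.90.

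Several pathway genes were too low to test. Yes1, a Src family kinase, reached at most 21 counts in a library and Inpp4b, an inositol phosphatase, 34.3 counts. Among Fc receptors of other classes, Fcer1a and Fcer2a, which bind IgE, reached at most 3 and 4.22 counts, Fcmr, which binds IgM, 10 counts, and Fcamr and Pigr 1 count each. Ms4a2, the beta chain of the IgE receptor of mast cells, reached 2 counts.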
